A study of Mus musculus with 8 samples.

Results

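Activation-induced cytidine deaminase (AID) deaminates cytosines in immunoglobulin genes, and reporter mice that make GFP under control of its gene let living cells be separated by whether that gene is on. The data described here are 4 of the 8 arrays of the series: 2 arrays of GFP-positive and 2 of GFP-negative splenic B cells from AID-GFP reporter mice, with the spleen cells of both fractions stimulated with lipopolysaccharide (LPS) and interleukin 4 (IL-4). They were chosen by the labels alone, and both fractions share the reporter and the stimulus. The other 4 arrays, of BCR-ABL1 bone marrow cells, entered only an alternative fit. The age, sex and strain of the mice, the length of stimulation and the way B cells were purified are unstated in the labels. Nothing says that the 2 arrays of a fraction came from separate mice or cultures, so the p-values reflect only how far these arrays scatter, which may be technical.

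Resting splenic B cells circulate in a quiescent state and enter division when LPS engages Toll-like receptors on their surface. IL-4 signals through Jak kinases and the factor Stat6 and steers dividing B cells towards switching of the heavy chain class, which needs AID to make lesions and base excision, mismatch and end-joining repair factors to process them. Class switching is known to become more frequent with successive divisions, and AID protein is found in germinal centre and stimulated B cells but not in resting ones.

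RNA was hybridised to mouse Affymetrix arrays with 45037 probe sets beside the controls, and 12319 genes passed a filter on low signal, each represented by its brightest probe set. That filter used the mean log2 signal of all 4 arrays, so a gene with signal in only 1 fraction could pass through that fraction. Signals below are quantile normalized over these 4 arrays, with 32 as the floor. Signals of a gene are given for the 2 arrays of each fraction, and values after a gene name in brackets are log2 differences, GFP-positive minus GFP-negative, ± standard error, with n = 2 arrays against 2. A gene said to rise or fall, or called, had an adjusted p under 0.05 (limma, Benjamini-Hochberg over all 12319 genes). An exact permutation test of 2 arrays against 2 cannot go below p = 0.333, so every call rests on the model. Within a fraction the arrays were close, with Spearman correlations over all probe sets of 0.984 for GFP-negative and 0.994 for GFP-positive. Between fractions they lay between 0.842 and 0.850. The GFP-negative arrays had a lower deposited trimmed mean (479 and 499.6, against 591 and 595) and a higher ratio of the end to the start of the Gapdh control transcript (1.88 and 1.93, against 1.40 and 1.48). The part of scale and RNA integrity in the differences below was not tested.

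Signal differed between fractions for most genes: limma called 4965 of 12319 higher in the GFP-positive arrays, a background of 40.3%, and 3905 lower, a background of 31.7%. A further 3449 were not called. At a size of 2-fold or more, 21.2% of genes rose and 16.7% fell. With such shares, a count of members on the quantile scale with all 4 arrays is read below against these backgrounds. Counts on another scale or without an array belong to that fit and cannot be read against them. A list is described by its counts and its median beside the median of all genes, 0.13. That median depends on how arrays are scaled. It was 0.34 on the deposited scale, 0.50 with equal array medians and 0.69 when arrays were scaled to the B cell receptor chains Cd79a and Cd79b, so a small difference can change sign with the scale. On that last scale 7714 genes were called higher and 2163 lower, and without the first or the second GFP-positive array 3247 and 3108 were called higher. Of 183 called genes (those named here and the gene with symbol a), 51 had a log2 difference that moved by over 1.5 times on the Cd79a and Cd79b scale, all of them smaller than 2 in size. Differences below are on the quantile scale. Many genes had signal in 1 fraction and little in the other. Of the genes tested, 493 had signals of 200 or more in both GFP-negative arrays and under 100 in both GFP-positive arrays, and 437 had the opposite pattern. Genes at 200 or more in all 4 arrays, called here expressed in both fractions, numbered 7281, and 5506 of them differed by less than 2-fold. In that class 40.2% of genes were called higher and 32.8% lower.

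**Figure D1:**
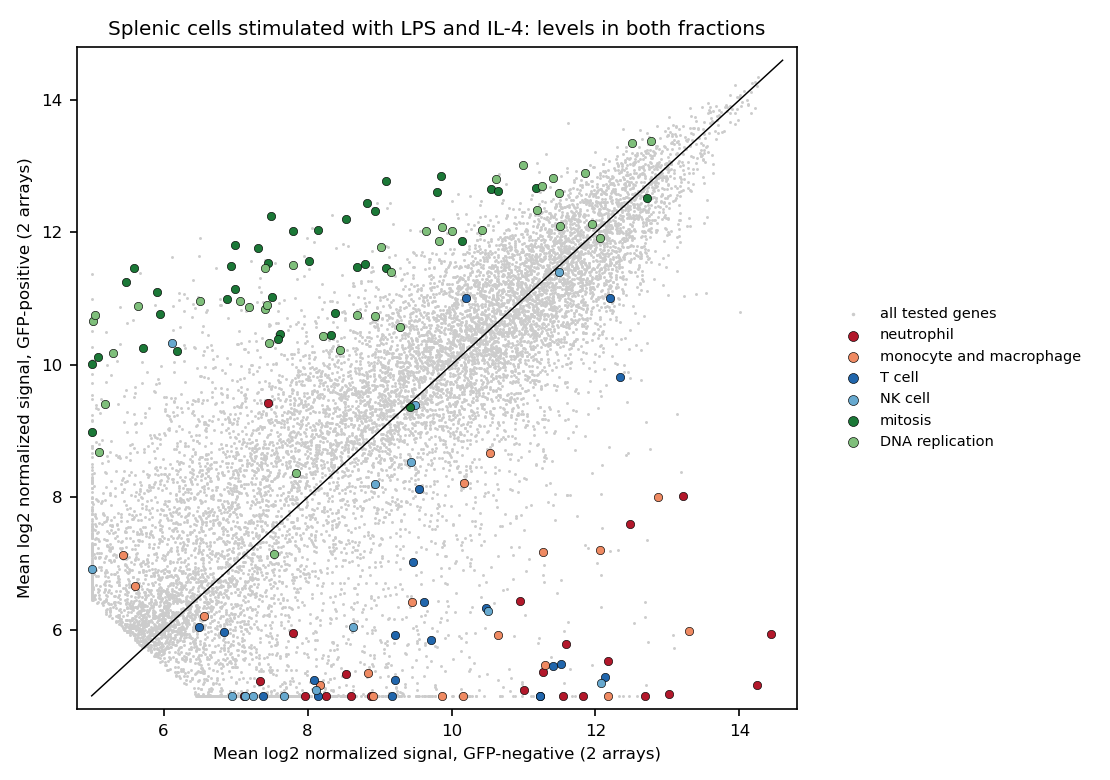
Mean log2 normalized signal of 12319 genes in the GFP-negative arrays (horizontal) and the GFP-positive arrays (vertical), each a mean of 2 arrays, with 6 gene lists coloured and a line of equality. Points on the left and bottom edges lie at the floor, and most neutrophil, monocyte and macrophage, T cell and NK cell genes lie below the line while most mitosis and DNA replication genes lie above it.

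Both fractions are labelled as B cells, but the GFP-negative fraction held RNA of other blood cells, and most of that RNA was near the floor in the GFP-positive fraction. Over 9 lists of markers of other cells (neutrophils, monocytes and macrophages, dendritic, T, NK, erythroid and stromal cells, platelets, and mast cells with basophils and eosinophils), 100 of 169 genes were tested. Of these, 75 were called lower and 12 higher, 72 fell by 2-fold or more, and the median log2 difference was -2.98. In both GFP-negative arrays 73 had signals of 200 or more, and in both GFP-positive arrays 65 were under 100. The signal of 49 further members was too low for the filter, and the annotation gave 20 members no unshared probe set. Mean GFP-negative signal reached the filter for 22 neutrophil, 16 monocyte and macrophage, 21 T cell and 13 NK cell genes. Mean GFP-positive signal reached it for 7, 11, 11 and 8 of these lists in turn. Many members were thus tested only through their GFP-negative signal, which partly sets the counts and medians of these lists. In bulk RNA, fewer cells of a type and less RNA per cell cannot be told apart.

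Neutrophil genes had the lowest median of all lists (-5.04), with 21 of 22 called lower, and the summed signal of the list was 94671 and 95639 in the GFP-negative arrays against 1913 and 2018 in the GFP-positive arrays. Fpr2, a receptor for formylated bacterial peptides, had 3519 and 3742 in the GFP-negative arrays and was at the floor in both GFP-positive arrays, at least 113-fold lower (adjusted p = 3.50e-06, limma). Chil3, a chitinase-like protein of neutrophils and alternatively activated macrophages, had 3141 and 2867 and was at the floor as well, at least 93.8-fold lower. Ltf, which encodes lactoferrin of secondary granules, fell from 4569 and 4662 to 48.9 and 43.6 (-6.64 ± 0.14). No array of one fraction overlapped the other for these 3 genes, as for 4729 of all 12319 genes in this direction. Lcn2, an iron-binding protein of granules, fell from 9282 and 9810 to 255 and 265 (-5.20 ± 0.085) and so kept a signal well above the floor. Mpo, the myeloperoxidase of primary granules, fell from 2192 and 1941 to 36.3 and 32 (-5.92 ± 0.17), with 1 GFP-positive array at the floor. The growth factor receptor Csf3r (-5.91 ± 0.15) and the collagenase Mmp9 (-5.80 ± 0.15) fell as far. Il1r2, a decoy receptor for interleukin 1, was the exception in the list and rose from 141 and 216 to 687 and 689.7 (1.98 ± 0.23).

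Of the monocyte and macrophage genes, 15 of 18 fell, with a list median of -4.00 and summed signals of 41460 and 39120 against 2301 and 2375. The other members were 2 that rose by 2-fold or more, up to 1.70, and 1 that was not called. Cd14, the co-receptor that hands LPS to Tlr4, fell from 2746 and 2292 to 44.4 and 43.8 (-5.83 ± 0.17). Ccr2, a chemokine receptor of inflammatory monocytes, had 1093 and 1187 in the GFP-negative arrays and was at the floor in both GFP-positive arrays, at least 35.6-fold lower. The signalling adaptors Tyrobp (-4.87 ± 0.13) and Fcer1g (-4.86 ± 0.11), shared by myeloid and NK cells, fell by similar sizes, from 7475 and 7458 to 225 and 289 for Tyrobp. Slc40a1, the iron exporter of macrophages that recycle red cells, fell from 1520 and 1704 to 61.8 and 59.6 (-4.73 ± 0.16). Signals of several markers of macrophages resident in tissue were low in all 4 arrays, since C1qa, C1qb, C1qc, Vcam1, Mrc1, Cd163, Marco, Cx3cr1 and Vsig4 did not pass the filter. Hmox1 (-1.95 ± 0.13) and Cd68 (-1.86 ± 0.13) fell less and stayed above 200 in all 4 arrays. Of the dendritic cell genes, Itgax, an integrin chain found on many myeloid cells, had 866 and 966 and was at the floor in both GFP-positive arrays, while 5 of 8 members were not called.

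T cell genes fell in 19 of 21 cases (median -3.21, summed signals 34001 and 32916 against 6119 and 6459). Cd3d, a chain of the T cell receptor complex, fell from 3204 and 2323 to 45.4 and 42.2 (-5.96 ± 0.20), and Lat, the adaptor that the receptor phosphorylates, from 1371 and 1494 to 84.7 and 75.4 (-4.16 ± 0.16). Icos, a costimulatory receptor, fell from 856 and 828 to 56.3 and 58.0 (-3.88 ± 0.16). The lineage co-receptor Cd8a fell from 725 and 858 to 89.1 and 81.5 (-3.21 ± 0.17). Cd2, an adhesion receptor that mouse B cells also carry, fell from 4596 and 4839 to 1945 and 2185 (-1.19 ± 0.079) and kept a high signal, as did the Wnt pathway factor Lef1 (-2.52 ± 0.13), which B cell precursors express too. Ctla4, an inhibitory receptor, rose from 1174 and 1170 to 1903 and 2225 (0.81 ± 0.10). Of the T cell genes tested, 16 of 21 were under 100 in both GFP-positive arrays, and the members that stayed above 200 there were Cd2, Lef1, Thy1 and Ctla4.

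NK cell genes were lower in 10 of 14 cases (median -2.04, summed signals 12641 and 11539 against 5787 and 5944). The protease Ctsw of cytotoxic cells fell from 1534 and 1371 to 63.5 and 94.9 (-4.22 ± 0.23), and Nkg7, a cytotoxic granule protein, from 377 and 413 to 68.0 and 64.2 (-2.58 ± 0.17). The chemokine Ccl5 did not pass the test, with 2989 and 2804 against 2675 and 2762 (adjusted p = 0.269, limma), and neither did perforin, Prf1 (adjusted p = 0.583). Among 6 tested genes of mast cells, basophils and eosinophils, 5 fell, including Hdc, the enzyme that makes histamine, from 1505 and 1349 to 98.8 and 113 (-3.75 ± 0.16), and the basophil protease Mcpt8 from 399 and 573 to 58.9 and 65.3 (-2.95 ± 0.23). Of 7 stromal and endothelial genes tested, 4 were lower, 1 was higher (1.65) and 2 were not called, and 10 more lay under the filter. The proteoglycan Dcn fell from 403 and 478 to 43.4 and 45.6 (-3.30 ± 0.18), and the B cell attracting chemokine Cxcl13, with 328 and 402, was at the floor in both GFP-positive arrays. Of the members with a probe set, 1 of 9 erythroid and 3 of 10 platelet genes passed the filter.

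A few genes of these lists rose with the reporter. Flt3, a growth factor receptor of dendritic cells and lymphoid progenitors, rose from 137 and 147 to 1809 and 1781 (3.66 ± 0.13, adjusted p = 7.75e-06, limma). Tbx21, which encodes the factor T-bet of NK and T helper cells and of switched B cells, rose from 84.3 and 56.7 to 1247 and 1316 (4.21 ± 0.22). Both were far above the highest GFP-negative array. Itgb3, an integrin chain listed for platelets, rose from 1947 and 1846 to 3008 and 2753 (0.60 ± 0.079; 1.03 with the mean of its probe sets), while the platelet-specific genes Pf4 and Ppbp lay under the filter.

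**Figure D2:**
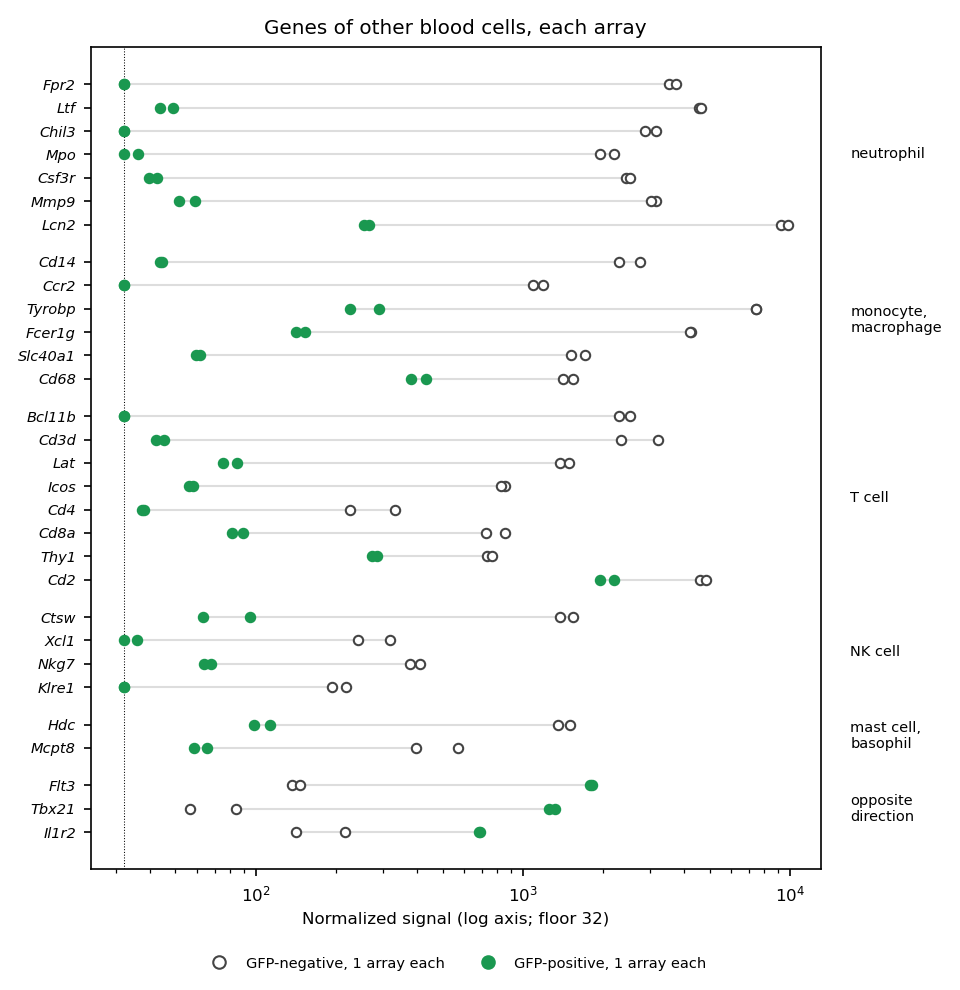
Normalized signal of 30 genes of other blood cells in each array, on a log axis (open circles, 2 GFP-negative arrays; filled circles, 2 GFP-positive arrays; dotted line, floor of 32). The 27 genes in the first 5 groups are lower in the GFP-positive arrays, from Cd2 at 1945 and 2185 to genes at the floor such as Fpr2, while Flt3, Tbx21 and Il1r2 lie to the right of their GFP-negative values.

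Genes that define B cells were present at high signal in both fractions. Their median was -0.45, with 15 of 20 lower and 3 higher, against backgrounds of 31.7% and 40.3%. On the Cd79a and Cd79b scale 8 were higher and 7 lower, against 7714 and 2163 of all 12319 genes. The list's median lay below the median of all genes on all 4 scales. It turned from -0.45 to 0.065 when arrays were scaled to Cd79a and Cd79b. On the deposited scale it was -0.28, and with equal medians -0.12. Cd79a, a signalling chain of the B cell receptor, had 10770 and 10965 in the GFP-negative and 7967 and 7937 in the GFP-positive arrays (-0.45 ± 0.035), and Cd79b had 11667 and 12122 and 10153 and 9934 (-0.24 ± 0.036). By construction these 2 calls were lost on the scale that they set, and that of Cd79b also without the trend in limma. Ms4a1, which encodes CD20, had 7988 and 7997 and 7505 and 7142 (-0.13 ± 0.043), a call lost under 10 alternatives. Cd37, a tetraspanin of mature B cells, was not called (7116 and 7802 against 7103 and 7336, adjusted p = 0.486). The summed signal of the list was 120479 and 122651 against 88110 and 84560. Some members went down by more than 2-fold whatever the scale: Fcmr, the receptor for IgM, fell from 5355 and 5884 to 959 and 942 (-2.56 ± 0.078), and the Fc receptor-like protein Fcrla from 6591 and 6916 to 1245 and 1322 (-2.40 ± 0.068). The kinase Blk, which acts below the receptor, fell from 5235 and 5469 to 2200 and 2136 (-1.30 ± 0.060, and -0.73 on the Cd79a and Cd79b scale). Pax5, the factor that holds B cell identity, had a dim probe set that rose from 83.7 and 58.1 to 160.5 and 173 (1.26 ± 0.23), a call lost without either GFP-positive array.

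Among 20 genes that carry signals from the B cell receptor, 11 fell and 3 rose, against backgrounds of 31.7% and 40.3%. Their median was -0.26, and -0.096 on the deposited scale. It turned to 0.063 with equal medians and 0.25 on the Cd79a and Cd79b scale. On that last scale 11 rose and 5 fell, against 7714 and 2163 of all 12319 genes. Without the first or the second GFP-positive array 0 and 1 rose. The scaffold protease Malt1, which links the receptor to NF-kB, fell from 4075 and 4368 to 1089 and 1166 (-1.90 ± 0.080; -1.17 with the mean of its probe sets). Rasgrp3, an activator of Ras, fell from 4348 and 4239 to 1207 and 1282 (-1.79 ± 0.072), and Cblb, a ubiquitin ligase that limits receptor signals, from 5776 and 6001 to 1873 and 1923 (-1.63 ± 0.059). For the inhibitory Fc receptor Fcgr2b (5642 and 5624 against 5754 and 5950, adjusted p = 0.313) and the phosphatase Ptpn6 (4595 and 4668 against 4648 and 5051, adjusted p = 0.354) limma made no call.

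Genes of resting follicular and marginal zone B cells were lower in the GFP-positive fraction in 16 of 23 cases, against a background of 31.7%, and higher in 3, with a median of -1.09. The median stayed under 0 on all 4 scales, at -0.56 on the Cd79a and Cd79b scale. On that scale 7 were higher and 14 lower, against 7714 and 2163 of all 12319 genes. Klf2, a factor that keeps lymphocytes quiescent and circulating, fell from 4703 and 4941 to 1064 and 1193 (-2.10 ± 0.085), and its target S1pr1, the receptor by which lymphocytes leave tissues, from 1347 and 1370 to 203 and 185 (-2.81 ± 0.13). Every GFP-positive array lay under every GFP-negative array for both, as for 4729 of all 12319 genes. The complement receptor Cr2, high on marginal zone and follicular B cells, fell from 1256 and 1312 to 202 and 199 (-2.68 ± 0.13), and the tetraspanin Cd9, of marginal zone B cells, from 3472 and 3304 to 529.6 and 553 (-2.65 ± 0.090). Cxcr4 (-2.45 ± 0.080), Itgb7 (-2.57 ± 0.13) and Ccr7 (-1.53 ± 0.056), which guide cells to niches, mucosa and T cell zones, fell too. The repressor Bach2, which holds back plasma cell fate, fell from 6211 and 6236 to 2883 and 2955 (-1.09 ± 0.051, and -0.56 on the Cd79a and Cd79b scale). For Cxcr5, the receptor that brings B cells to follicles, limma made no call (3263 and 3723 against 3267 and 3348, adjusted p = 0.418). Upward went the sphingosine receptor S1pr3, from 59.9 and 44.5 to 549 and 564 (3.43 ± 0.21), and Tnfrsf13b, the BAFF and APRIL receptor TACI, from 2639 and 2143 to 4684 and 4513 (0.95 ± 0.10). Klf2, S1pr1, Cxcr4, Itgb7 and Ccr7 are also expressed by T cells, whose 23 markers summed to 34001 and 32916 in the GFP-negative arrays against 6119 and 6459, and the part of T cell RNA in these falls was not tested.

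Genes of the IL-4 and STAT6 response were mostly higher, with 10 of 13 higher and 2 lower, against backgrounds of 40.3% and 31.7%. Their median was 2.33 and lay between 2.33 and 2.98 on the 4 scales. Mean GFP-negative signal reached the filter for 11 of them, and mean GFP-positive signal for 13. Of the 8 expressed in both fractions, 5 rose and 2 fell, with a lower median of 0.84. Nfil3, a leucine zipper factor induced by IL-4 and needed for IgE switching, rose from 269 and 274 to 3632 and 3792 (3.77 ± 0.10, adjusted p = 4.33e-06, limma). Zbtb32, a repressor made by activated lymphocytes, rose from 234 and 276 to 4089 and 3637 (3.92 ± 0.13), and Batf, an AP-1 factor needed for AID expression and switching, from 272 and 416 to 3386 and 3564 (3.37 ± 0.20). The 2 fractions did not overlap for any of the 3, as for 5890 of all 12319 genes in this direction. Cish, a feedback inhibitor of cytokine signalling, rose from 96.6 and 99.97 to 887 and 905 (3.19 ± 0.15), and the related Socs3 from 194 and 183 to 1394 and 1426 (2.91 ± 0.13). The kinase Jak3, which binds the common cytokine receptor chain, rose from 125 and 145 to 638 and 714 (2.33 ± 0.17), and the receptor Il4ra, itself induced by IL-4, from 1996 and 2014 to 3952 and 4131 (1.01 ± 0.064). The cytokine Il6, made by activated B cells, rose from 37.9 and the floor to 626 and 608 (4.15 ± 0.18). Jak1, the other kinase of the receptor, fell from 5389 and 5224 to 2490 and 2613 (-1.06 ± 0.059; -0.51 on the Cd79a and Cd79b scale), and Stat6 had 3878 and 3842 against 2732 and 2688 (-0.51 ± 0.058), a call lost with equal medians and on the Cd79a and Cd79b scale.

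Against backgrounds of 40.3% and 31.7%, 9 of 18 surface genes of activated B cells were higher and 4 lower, with a median of 0.33. That was 14 higher and 3 lower on the Cd79a and Cd79b scale, against 7714 and 2163 of all 12319 genes. Slamf1, a signalling receptor that rises on activation, went from 127 and 151 to 764 and 726 (2.42 ± 0.17), the IL-2 receptor chain Il2ra from 580.2 and 549 to 1753 and 1614 (1.58 ± 0.11), and the death receptor Fas from 1275 and 1508 to 2813 and 2984 (1.06 ± 0.10). The activation marker Cd83 had 10119 and 10724 against 10238 and 11366 (adjusted p = 0.469, limma), and Cd69 had 4376 and 3770 against 3764 and 3125 (adjusted p = 0.0945). Neither was called. Icosl, the ligand of ICOS, fell from 6812 and 6978 to 399 and 447 (-4.03 ± 0.091; -2.39 with the mean of its probe sets). Tnfrsf9, the receptor 4-1BB, fell from 727 and 599.6 to 74.9 and 71.3 (-3.18 ± 0.18), and Tnfrsf18, the receptor GITR, from 1285 and 1385 to 401 and 367 (-1.80 ± 0.12), both also expressed by activated T cells.

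Of the LPS sensing genes, 7 of 16 were higher and 6 lower (median 0.20), near the backgrounds of 40.3% and 31.7%. On the deposited and equal-median scales 9 were higher and 3 lower. They were 9 higher and 1 lower on the Cd79a and Cd79b scale (median 0.82), against 7714 and 2163 of all 12319 genes. Tlr4, the LPS receptor, rose from 158 and 141 to 519 and 488 (1.75 ± 0.16), together with the related B cell receptor Cd180, from 194 and 136 to 549.9 and 526 (1.73 ± 0.21), and the RNA sensor Tlr7, from 619 and 769.6 to 1936 and 2133 (1.56 ± 0.13). Tlr2, which is high on myeloid cells, fell from 813 and 783 to 276 and 299 (-1.47 ± 0.14). Genes of the NF-kB response had a median of 0.060, with 9 of 20 higher and 9 lower, against backgrounds of 40.3% and 31.7%. The counts were 12 higher and 2 lower on the Cd79a and Cd79b scale (median 0.67), against 7714 and 2163 of all 12319 genes. The signal adaptor Traf1 rose from 2503 and 2855 to 4587 and 5253 (0.88 ± 0.095), while the lymphotoxin chain Ltb fell from 1842 and 1865 to 859 and 868 (-1.10 ± 0.089; -0.34 on the Cd79a and Cd79b scale) and the chemokine Ccl4 from 609 and 453 to 155 and 176 (-1.67 ± 0.20). For the precursor Nfkb2 the signals were 2695 and 2367 against 2557 and 2447, without a call (adjusted p = 0.891).

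Germinal centre genes moved in both directions (7 of 14 higher, 4 lower, median 0.48), against backgrounds of 40.3% and 31.7%. Of the 9 expressed in both fractions, 3 rose and 4 fell, with a median of -0.068. The list's counts were 9 higher and 2 lower on the Cd79a and Cd79b scale, against 7714 and 2163 of all 12319 genes. Mef2b, a cofactor of the germinal centre programme, rose from 148 and 123 to 1820 and 1828 (3.75 ± 0.15, adjusted p = 9.97e-06, limma), and the semaphorin receptor Plxnb2 from 126 and 86.4 to 779.6 and 820.1 (2.94 ± 0.22). The histone methyltransferase Ezh2, high in dividing B cells, rose from 1408 and 1056 to 6027 and 6003 (2.30 ± 0.13). Bcl6, the repressor that the germinal centre state depends on, fell from 5311 and 4979 to 2158 and 1916 (-1.34 ± 0.080; -0.76 on the Cd79a and Cd79b scale). The 2 fractions did not overlap for any of these 4 genes, as for most tested genes (5890 higher and 4729 lower of 12319).

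Of the plasma cell genes, 7 of 17 were higher and 8 lower, against backgrounds of 40.3% and 31.7%, with a median of 0.16. The counts were 9 higher and 4 lower on the Cd79a and Cd79b scale, against 7714 and 2163 of all 12319 genes. Sdc1, the surface marker CD138, fell from 3164 and 3143 to 493 and 459 (-2.73 ± 0.095), and Jchain, which joins IgM and IgA polymers, from 11875 and 12199 to 4842 and 4821 (-1.32 ± 0.039). Members that rose included the chaperone cofactor Creld2, from 1797 and 1855 to 3880 and 4123 (1.13 ± 0.068), Derl3, of the export channel for misfolded proteins, from 252 and 360.2 to 955 and 885 (1.61 ± 0.20), and Mzb1, a chaperone of IgM assembly, from 6094 and 6596 to 9528 and 9242 (0.57 ± 0.051). Prdm1, which encodes Blimp-1, the regulator of plasma cell fate, had low signals of 401 and 395 against 459 and 433 and was not called (adjusted p = 0.329). Of the immunoglobulin constant genes 3 had probe sets of their own. Igha fell from 16800 and 16305 to 1949 and 1639 (-3.21 ± 0.085), and its other 2 probe sets gave -3.56 and -4.03. Ighm was among the brightest genes of all 4 arrays, at 17799 and 17799 against 15391 and 15920 (-0.19 ± 0.029), but its 9 other probe sets ran from -2.91 to 1.36, and 5 of them were called higher. For Ighg3 the brightest probe set gave -1.12 and the other 1.73. Probe sets of immunoglobulin genes can share sequence, so the direction for Ighm and Ighg3 is uncertain.

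Interferon response genes were higher in 19 of 30 cases, against a background of 40.3%, and lower in 7, with a median of 0.51. On the Cd79a and Cd79b scale 23 were higher and 2 lower, against 7714 and 2163 of all 12319 genes. The members with the largest rises are known to be induced by interferon gamma. Ido1, which degrades tryptophan, was at the floor in both GFP-negative arrays and had 2589 and 2695 in the GFP-positive arrays, at least 82.5-fold higher. The guanylate-binding protein Gbp2b was likewise at the floor, against 1406 and 1504, at least 45.4-fold higher, and the GTPase Iigp1 rose from 101 and 81.7 to 3967 and 3772 (5.41 ± 0.15). Gbp2 rose from 2566 and 2544 to 9520 and 9145 (1.87 ± 0.050), and the RNA sensor Ifih1 from 291 and 208 to 1630 and 1519 (2.68 ± 0.19). Ifit3, which binds viral RNA, fell from 5372 and 5612 to 386 and 410.0 (-3.79 ± 0.088), and the factor Irf7 from 1770 and 1963 to 874 and 969.7 (-1.02 ± 0.11), a call lost on the Cd79a and Cd79b scale. Ifit1 (1303 and 1159 against 1256 and 1219, adjusted p = 0.935) and Mx1 (1702 and 1744 against 2000 and 1776, adjusted p = 0.24) were not called by limma.

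**Figure D3:**
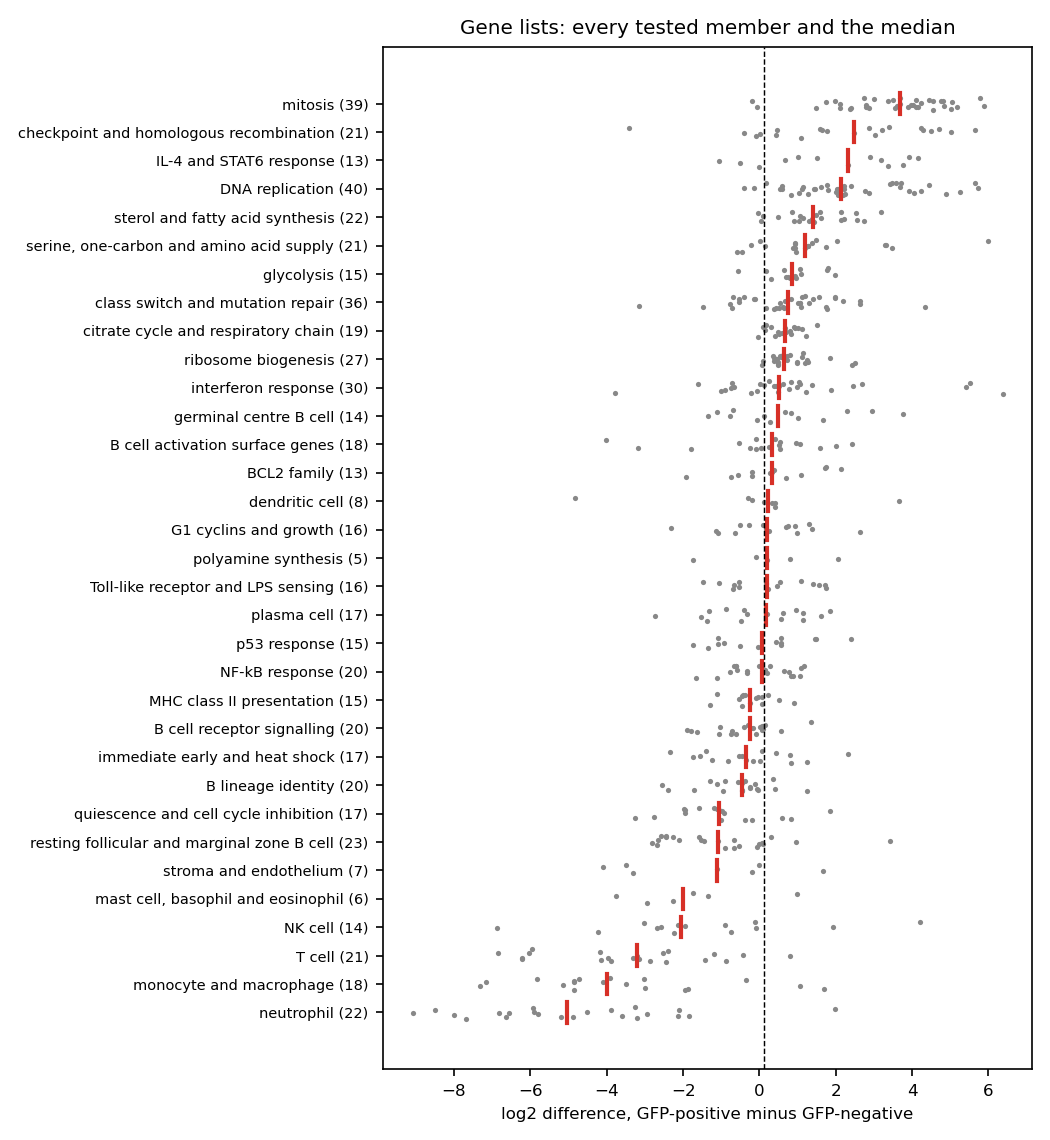
Log2 difference (GFP-positive minus GFP-negative) of every tested member of the lists with 5 or more tested genes (grey points), with the median of each list (red bar) and of all genes (dashed line, 0.13), and the number tested in brackets. Mitosis (3.67) and neutrophil genes (-5.04) stand at the ends, and B lineage identity (-0.45) lies between them. On other scales the medians of B lineage identity, B cell receptor signalling, MHC class II and immediate early genes cross 0.

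Genes of class switching and of the repair of AID lesions were higher in 24 of 36 cases and lower in 8, against backgrounds of 40.3% and 31.7%. Their median was 0.75 and lay between 0.75 and 1.44 on the 4 scales. They were 29 higher and 3 lower on the Cd79a and Cd79b scale, against 7714 and 2163 of all 12319 genes. Ung, the glycosylase that removes the uracil AID leaves, rose from 525 and 774 to 2608 and 2408 (1.97 ± 0.19, adjusted p = 0.000162, limma). The break sensors of the MRN complex rose together: Mre11a from 324 and 269 to 1755 and 1926 (2.64 ± 0.14; 1.00 with the mean of its probe sets), Rad50 from 508 and 453 to 1575 and 1689 (1.77 ± 0.12) and Nbn from 431 and 378 to 1327 and 1381 (1.75 ± 0.13). H2ax, the histone phosphorylated at breaks, rose from 275 and 216 to 1471 and 1531 (2.62 ± 0.16). Of the end-joining factors, Xrcc5, the larger Ku subunit, rose from 686 and 776 to 1491 and 1583 (1.07 ± 0.11), and Mad2l2, the shieldin subunit that protects ends from resection, from 222 and 217 to 848 and 892 (1.98 ± 0.14). The mismatch repair nuclease Exo1, which also works in replication, rose from 83.2 and 84.7 to 1697 and 1669 (4.33 ± 0.14), and the nick-sealing ligase Lig1 from 586 and 560.3 to 2559 and 2704 (2.20 ± 0.095). The RNA exosome subunit Exosc3, a cofactor by which AID reaches both DNA strands, rose from 936 and 1095 to 2144 and 2276 (1.13 ± 0.11). Hmces, a shield for abasic sites, went the other way, from 2517 and 2774 to 303 and 291 (-3.15 ± 0.11), as did Ptbp2, a splicing factor that helps AID find switch regions, from 3008 and 2590 to 1066 and 945 (-1.48 ± 0.11). The 53BP1 gene Trp53bp1, central to end joining of switch regions, had 3714 and 3231 against 2697 and 2153 (-0.52 ± 0.13), a call lost under 8 alternatives, with 0.012 for the mean of its probe sets. Many of the genes that rose here are also made for DNA replication, and the part of cell division in this list was not tested.

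Genes of the cell cycle rose together. Mitosis genes were higher in 37 of 39 cases, against a background of 40.3%, with a median of 3.67, and the list's summed signal was 22478 and 22690 in the GFP-negative arrays against 128601 and 131561. DNA replication genes were higher in 38 of 40 cases, with none lower, and had a median of 2.13 and summed signals of 51464 and 52622 against 140459 and 141878. These medians were between 3.67 and 4.38 and between 2.13 and 2.84 on the 4 scales. Mean GFP-negative signal reached the filter for 33 mitosis and 34 replication genes, and mean GFP-positive signal for 39 and 40. Together the lists held 79 tested genes, of which 70 rose by 2-fold or more. Of them 45 were expressed in both fractions, and 42 of those rose, so the rise was seen in genes with signal in the GFP-negative arrays too.

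In mitosis, Ccnb2, a cyclin that drives entry, rose from 167 and 151 to 3376 and 3579 (4.45 ± 0.12, adjusted p = 4.49e-06, limma). The spindle kinase Aurka rose from 129 and 116 to 2800 and 2944 (4.56 ± 0.13), and the mitotic kinase Plk1 from 95.4 and 169 to 2140 and 2378 (4.15 ± 0.27). Cdk1, the kinase that Ccnb2 binds, rose from 448 and 539.8 to 4874 and 5372 (3.38 ± 0.12), and Cdc20, which starts the destruction of cyclins, from 322 and 251 to 3993 and 4455 (3.89 ± 0.15). Nuf2, of the outer kinetochore, rose from 45.6 and 43.5 to 2491 and 2386 (5.77 ± 0.15), and Cenpf, a kinetochore protein, from the floor in both arrays to 1075 and 984, at least 32.1-fold. Mki67, the proliferation antigen Ki-67, rose less, from 1470 and 1732 to 6135 and 6530 (1.99 ± 0.093), and was bright in both fractions. The 2 exceptions were Pttg1, the securin, with 6586 and 6848 against 5535 and 6224 (-0.19 ± 0.066), a call lost under 9 alternatives, and Kif11. The brightest probe set of the spindle motor Kif11 had 761 and 619 against 647 and 676 (adjusted p = 0.755), while its other 2 gave rises of 4.97 and 5.30.

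In replication, Cdc6, which loads the helicase at origins, rose from 32.9 and the floor to 1690 and 1544 (5.64 ± 0.16), and the helicase subunit Mcm5 from 990.0 and 885 to 4735 and 3934 (2.20 ± 0.11). Rrm1, the large subunit of the enzyme that makes deoxynucleotides, rose from 782 and 815 to 4053 and 4304 (2.39 ± 0.081). Pcna, the clamp of the polymerases, was abundant in both fractions, at 6884 and 7165 against 10525 and 10715 (0.60 ± 0.040). Cdt1, the licensing factor that is destroyed as replication starts, was not called (4461 and 4066 against 3989 and 3714, adjusted p = 0.107), and neither was the dim brightest probe set of Orc1 (adjusted p = 0.0763), whose other probe set gave 4.55. Among 21 genes of the checkpoint and of homologous recombination, 17 rose and 2 fell (median 2.47), against backgrounds of 40.3% and 31.7%. Mean GFP-negative signal reached the filter for 15 of them, and mean GFP-positive signal for 21. Of the 7 expressed in both fractions, 4 rose and 1 fell, with a median of 0.44. The checkpoint kinase Chek1 rose from 36.4 and the floor to 1733 and 1656 (5.63 ± 0.17), and Brca1, which promotes recombination, from 118 and 80.1 to 1764 and 1885 (4.23 ± 0.21). Rad54l had a fall of -3.41 in its brightest probe set and rises of 3.92 to 4.48 in its other 3, so its direction is uncertain.

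Promoters of 5 of these genes are shown because the letters of known cell cycle elements lie in them. In RefSeq promoters of GRCm38.p6, from 250 bases before to 50 bases after each start, the cell cycle homology region (CHR, TTTGAA on either strand) was in 26 of 33 mitosis genes with a promoter entry, 78.8%, and in 14.5% of 9947 tested genes with one. CCAAT boxes (CCAAT on either strand) were in 75.8% of these mitosis genes, against 42.5%. E2F-like letters (TTTCCCGC, TTTCGCGC, TTTGCCGC or TTTGGCGC on either strand) were in 13 of 32 DNA replication genes, 40.6%, against 4.55%. Over all 27025 genes with an entry the shares were 20.2% for CHR, 41.1% for CCAAT and 2.60% for E2F-like letters. A match is a description of these letters, not of a bound site. Capitals mark CHR and CCAAT in the first 3 promoters below and E2F-like letters in the other two, where 2 matches in Mcm5 overlap and read as 1 run. Ccnb2 (chr9:70421505-70421804, minus strand) has CHR starting 167 bases before the start and at base 5 after it, with 3 CCAAT boxes between. Plk1 (chr7:122159185-122159484, plus strand) has a CCAAT box 14 bases before and CHR at base 31, and Aurka (chr2:172370521-172370820, minus strand) CCAAT boxes 51 and 19 bases before and CHR at base 33. Cdc6 lies at chr11:98907901-98908200 and Mcm5 at chr8:75109259-75109558, both on the plus strand.
Ccnb2: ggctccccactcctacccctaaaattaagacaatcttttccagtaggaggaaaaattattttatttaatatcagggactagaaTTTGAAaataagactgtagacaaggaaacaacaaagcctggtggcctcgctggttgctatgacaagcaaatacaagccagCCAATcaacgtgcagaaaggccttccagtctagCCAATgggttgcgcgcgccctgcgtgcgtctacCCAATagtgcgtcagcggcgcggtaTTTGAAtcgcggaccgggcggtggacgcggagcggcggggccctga
Plk1: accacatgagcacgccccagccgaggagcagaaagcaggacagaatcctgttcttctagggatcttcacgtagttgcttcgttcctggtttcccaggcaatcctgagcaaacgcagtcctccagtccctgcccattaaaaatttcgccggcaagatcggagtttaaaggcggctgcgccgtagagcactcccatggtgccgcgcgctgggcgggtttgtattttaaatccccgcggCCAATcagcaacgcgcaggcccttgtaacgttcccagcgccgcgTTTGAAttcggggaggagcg
Aurka: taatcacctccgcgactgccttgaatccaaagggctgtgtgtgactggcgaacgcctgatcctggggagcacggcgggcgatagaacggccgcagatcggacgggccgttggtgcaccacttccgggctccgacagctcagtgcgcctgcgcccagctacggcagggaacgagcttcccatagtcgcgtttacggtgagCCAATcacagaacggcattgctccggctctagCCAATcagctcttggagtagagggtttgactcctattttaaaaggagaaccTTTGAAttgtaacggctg
Cdc6: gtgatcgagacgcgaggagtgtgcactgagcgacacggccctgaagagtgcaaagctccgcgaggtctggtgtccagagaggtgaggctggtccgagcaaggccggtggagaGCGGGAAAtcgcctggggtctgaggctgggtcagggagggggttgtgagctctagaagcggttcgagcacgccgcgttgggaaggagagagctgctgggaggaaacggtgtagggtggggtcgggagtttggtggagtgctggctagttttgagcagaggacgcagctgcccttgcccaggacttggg
Mcm5: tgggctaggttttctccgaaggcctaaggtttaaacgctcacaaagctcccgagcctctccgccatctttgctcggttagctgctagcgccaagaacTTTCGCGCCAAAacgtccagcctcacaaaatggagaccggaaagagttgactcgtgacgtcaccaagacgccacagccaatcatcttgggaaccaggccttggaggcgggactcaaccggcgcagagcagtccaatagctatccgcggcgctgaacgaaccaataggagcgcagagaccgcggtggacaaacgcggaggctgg

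For comparison, STAT-like letters (TTCNNNGAA or TTCNNNNGAA) were in 2 of 13 promoters of the IL-4 and STAT6 list, 15.4%, close to the 14.2% of tested genes. The promoter of Cish (chr9:107296409-107296708, plus strand), the inhibitor whose signal rose from 96.6 and 99.97 to 887 and 905, held 2 of them, at bases 1 and 12 after the start, in capitals.
Cish: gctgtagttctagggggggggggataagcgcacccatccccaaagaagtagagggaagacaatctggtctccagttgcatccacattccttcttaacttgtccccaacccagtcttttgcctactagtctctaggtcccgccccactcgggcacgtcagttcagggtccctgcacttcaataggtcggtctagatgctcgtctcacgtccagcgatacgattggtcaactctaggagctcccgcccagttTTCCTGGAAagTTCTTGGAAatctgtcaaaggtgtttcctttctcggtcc

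Genes of quiescence and cell cycle inhibition went down as the cell cycle genes went up, with 13 of 17 lower, 3 higher and a median of -1.06 (-0.62 on the Cd79a and Cd79b scale). Klf4, a factor that holds B cells in quiescence and is also high in monocytes, fell from 1154 and 1291 to 134 and 123 (-3.25 ± 0.15). Btg2, an antiproliferative cofactor, fell from 3069 and 3152 to 832 and 791 (-1.94 ± 0.084), Ccng2, a cyclin of arrested cells, from 3067 and 3126 to 1062 and 994 (-1.59 ± 0.081), and Cdkn1b, the inhibitor p27, from 5504 and 5350 to 2641 and 2176 (-1.18 ± 0.098; -0.62 on the Cd79a and Cd79b scale). Cdkn2c, the inhibitor p18, rose from 211 and 231 to 804 and 790.3 (1.85 ± 0.14). Among 16 regulators of growth and of the first gap phase, 7 rose and 5 fell. On the Cd79a and Cd79b scale 10 were higher and 2 lower, against 7714 and 2163 of all 12319 genes. The 7 that rose and the 5 that fell of these 16 were near the backgrounds of 40.3% and 31.7%. The phosphatase Cdc25a rose from 159.7 and 159.8 to 987 and 1004 (2.64 ± 0.14), and the cyclin Ccnd2 from 3248 and 2998 to 7674 and 7686 (adjusted p = 1.27e-05, limma). Myc, a transcription factor of cell growth, rose from 1845 and 1921 to 3413 and 3764 (0.93 ± 0.077). Mxd1, an antagonist of Myc, fell from 2368 and 2708 to 468 and 552 (-2.32 ± 0.13; -1.48 with the mean of its probe sets).

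**Figure D4:**
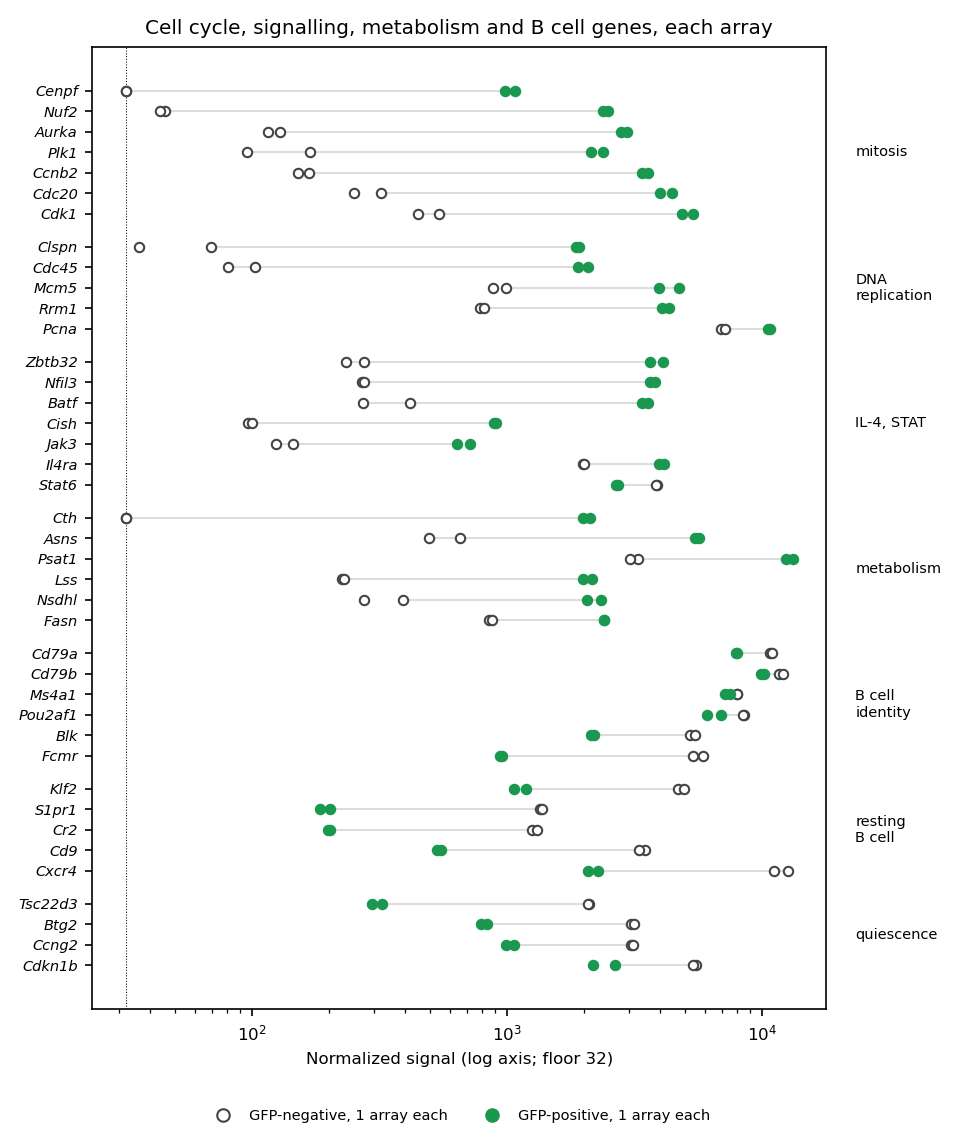
Normalized signal of 40 genes of the cell cycle, IL-4 response, metabolism, B cell identity, resting B cells and quiescence in each array, on a log axis (open circles, 2 GFP-negative arrays; filled circles, 2 GFP-positive arrays; dotted line, floor of 32). Filled circles lie to the right for all mitosis, replication and metabolism genes shown, such as Ccnb2 at 3376 and 3579, and to the left for the resting B cell and quiescence genes.

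Metabolic genes rose broadly. Of ribosome biogenesis genes, 25 of 27 were higher and none lower (median 0.64). Nop16, a nucleolar protein, rose from 247 and 259 to 1472 and 1411 (2.51 ± 0.12; 1.35 with the mean of its probe sets), and Nhp2, of the snoRNA particle, from 1279 and 1410 to 4634 and 4978 (1.84 ± 0.081). Glycolysis genes rose in 14 of 15 cases (median 0.86): the hexokinase Hk2 from 812 and 879 to 3279 and 3353 (1.97 ± 0.085) and the lactate exporter Slc16a1 from 1336 and 1488 to 5132 and 4628 (1.79 ± 0.088). Citrate cycle and respiratory chain genes rose in 17 of 19 cases with none lower (median 0.68), led by Idh3a, from 860.0 and 969 to 2818 and 2382 (1.51 ± 0.12). All 3 medians lay above 0 on the 4 scales, with the highest at 1.25, 1.37 and 1.16 for the 3 lists in turn.

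Genes that supply serine, one-carbon units and amino acids rose in 17 of 21 cases and fell in 2 (median 1.18), and none fell on the other 3 scales. Cth, which makes cysteine, was at the floor in both GFP-negative arrays and had 1981 and 2118 in the GFP-positive arrays, at least 64-fold higher. Asns, the asparagine synthetase, rose from 493 and 652 to 5660 and 5487 (3.30 ± 0.14), and Psat1, of serine synthesis, from 3267 and 3039 to 12446 and 13195 (2.02 ± 0.056). Trib3 (3.32 ± 0.17) and Chac1 (3.47 ± 0.25), targets of the stress factor Atf4, rose as well. Atf4 itself had a log2 difference of only 0.14 (adjusted p = 0.0396, limma), a call lost under 8 alternatives. The polyamine enzyme Srm, spermidine synthase, rose from 1328 and 1406 to 5625 and 5766 (2.06 ± 0.067), and Sat1, which breaks polyamines down, fell from 7831 and 7908 to 2285 and 2420 (-1.74 ± 0.055).

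Sterol and fatty acid synthesis genes rose in 19 of 22 cases with none lower (median 1.40, up to 2.02 on the 4 scales). Lss, the cyclase that forms lanosterol, rose from 226 and 229 to 1982 and 2155 (3.19 ± 0.12, adjusted p = 8.45e-06, limma), Nsdhl, a later enzyme, from 392 and 276 to 2328 and 2052 (2.73 ± 0.19), and Fdps, which makes farnesyl diphosphate, from 1094 and 1086 to 4807 and 4765 (2.13 ± 0.068). The regulators Srebf2 (3189 and 3419 against 3449 and 3402, adjusted p = 0.478) and Insig1 (6566 and 6520 against 6629 and 6236, adjusted p = 0.656) were not called. A CCAAT box was in 17 of 18 promoters of this list, 94.4%, against 42.5% of tested genes.

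MHC class II genes were lower in 8 of 15 cases and higher in 3, against backgrounds of 31.7% and 40.3%. Their median of -0.24 turned to 0.060 with equal medians and 0.25 on the Cd79a and Cd79b scale. On that last scale 8 were higher and 2 lower, against 7714 and 2163 of all 12319 genes. Without the first or the second GFP-positive array 3 and 1 were higher. The invariant chain Cd74 (19170 and 19582 against 18835 and 18936, adjusted p = 0.23, limma) and H2-Ab1 (11783 and 11264 against 12018 and 12211, adjusted p = 0.115) were not called, while H2-Ob, an inhibitor of peptide loading, fell from 6337 and 6507 to 2750 and 2493 (-1.29 ± 0.066; -0.76 on the Cd79a and Cd79b scale). In the BCL2 family 7 of 13 rose and 4 fell, against backgrounds of 40.3% and 31.7%. On the Cd79a and Cd79b scale 9 were higher and 2 lower, against 7714 and 2163 of all 12319 genes. Bak1, which opens mitochondria, rose from 402 and 419.6 to 1784 and 1846 (2.14 ± 0.11), and its antagonist Bcl2l1 from 123 and 152 to 474 and 437 (1.73 ± 0.18). The death activator Bmf fell from 596 and 773 to 177 and 180.5 (-1.93 ± 0.18), and the survival gene Mcl1 from 9357 and 8979 to 5617 and 5350 (-0.74 ± 0.047), which was -0.31 on the Cd79a and Cd79b scale.

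Of p53 target genes 6 of 15 rose, near the background of 40.3%, and 5 fell. Without the second GFP-negative array 4 rose, and without any other single array 3. Phlda3 went up from 51.4 and 75.9 to 317 and 338 (2.39 ± 0.23) and Sesn1, a stress sensor also driven by FoxO factors, down from 2671 and 2844 to 798 and 866 (-1.73 ± 0.093). Immediate early and heat shock genes were lower in 9 of 17 cases and higher in 5, against backgrounds of 31.7% and 40.3%. Their median of -0.36 turned to 0.016, 0.18 and 0.36 on the other 3 scales. They were 9 higher and 5 lower on the Cd79a and Cd79b scale, against 7714 and 2163 of all 12319 genes. Nr4a1, induced by antigen receptors, fell from 750.2 and 777 to 155 and 148 (-2.33 ± 0.15), and the phosphatase Dusp1 from 4197 and 4090 to 1643 and 1515 (-1.39 ± 0.073). Atf3, a stress factor, rose from 191 and 287 to 1156 and 1174 (2.31 ± 0.21).

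Outside the lists, the largest rises among genes expressed in both fractions included more genes of division. Cep55, which completes cell separation, rose from 273 and 388 to 5302 and 4590 (3.92 ± 0.18), and Ncapg, a condensin subunit, from 504 and 491 to 5430 and 5729 (3.49 ± 0.082). Others had roles elsewhere: Bcat1, which transfers nitrogen from branched-chain amino acids, rose from 521 and 581 to 5317 and 5208 (3.26 ± 0.090), Sdf2l1, of the endoplasmic reticulum, from 323 and 399 to 3512 and 3742 (3.34 ± 0.13), and Lap3, an aminopeptidase, from 419.9 and 339.8 to 3430 and 3684 (3.23 ± 0.13). Among the falls in this class, Rgs2, a brake on G protein signals, went from 4341 and 4296 to 261 and 268 (-4.03 ± 0.096) and the kinase Sgk1 from 4733 and 4561 to 395 and 478 (-3.42 ± 0.12). Anxa2 (-3.60 ± 0.10), Slpi (-3.89 ± 0.080), Sirpa (-3.58 ± 0.11) and Alox5ap (-3.39 ± 0.11), which are high in myeloid cells, fell by similar sizes, so a signal of 200 in all arrays did not leave only B cell genes. Bzw2 (-4.81) was -1.39 with the mean of its probe sets. Its other probe sets ran from -0.97 to 1.62, with 1 called higher, so its direction is uncertain.

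Among genes low in 1 fraction, the falls outside the lists included more genes of other blood cells. C5ar1, the receptor for complement C5a, had 6016 and 6247 and was at the floor in both GFP-positive arrays, at least 192-fold lower, and the cytokine Il1b fell from 5954 and 5891 to 64.8 and 72.3 (-6.44 ± 0.13). Fyb, an adaptor of T cells and myeloid cells, was at the floor as well (5343 and 5330 in the GFP-negative arrays), and Trbv1, a T cell receptor segment, fell from 6756 and 6846 to 54.6 and 58.0 (-6.92 ± 0.12). The rises in this class included Mybl2, a factor of the division programme, from 42.2 and the floor to 1484 and 1410 (5.30 ± 0.20), Cdca5, of sister chromatid cohesion, from 83.3 and 58.2 to 3020 and 3285 (5.50 ± 0.20), and Siah2, a ubiquitin ligase, from 80.7 and 68.7 to 2109 and 2254 (4.87 ± 0.16). Ubd, a ubiquitin-like modifier induced by interferon gamma, went from the floor to 1083 and 1062, at least 33.5-fold.

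Of the genes called, 56.0% were higher on the quantile scale, 66.4% on the deposited scale, 72.3% with equal array medians and 78.1% on the Cd79a and Cd79b scale. Medians of mitosis, DNA replication, IL-4 response, sterol and one-carbon genes were above 0, and those of neutrophil, macrophage, T cell, NK cell, resting B cell and quiescence genes below 0, on all 4 scales. The medians of B lineage identity, B cell receptor signalling, MHC class II and immediate early genes had no settled sign.

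**Figure D5:**
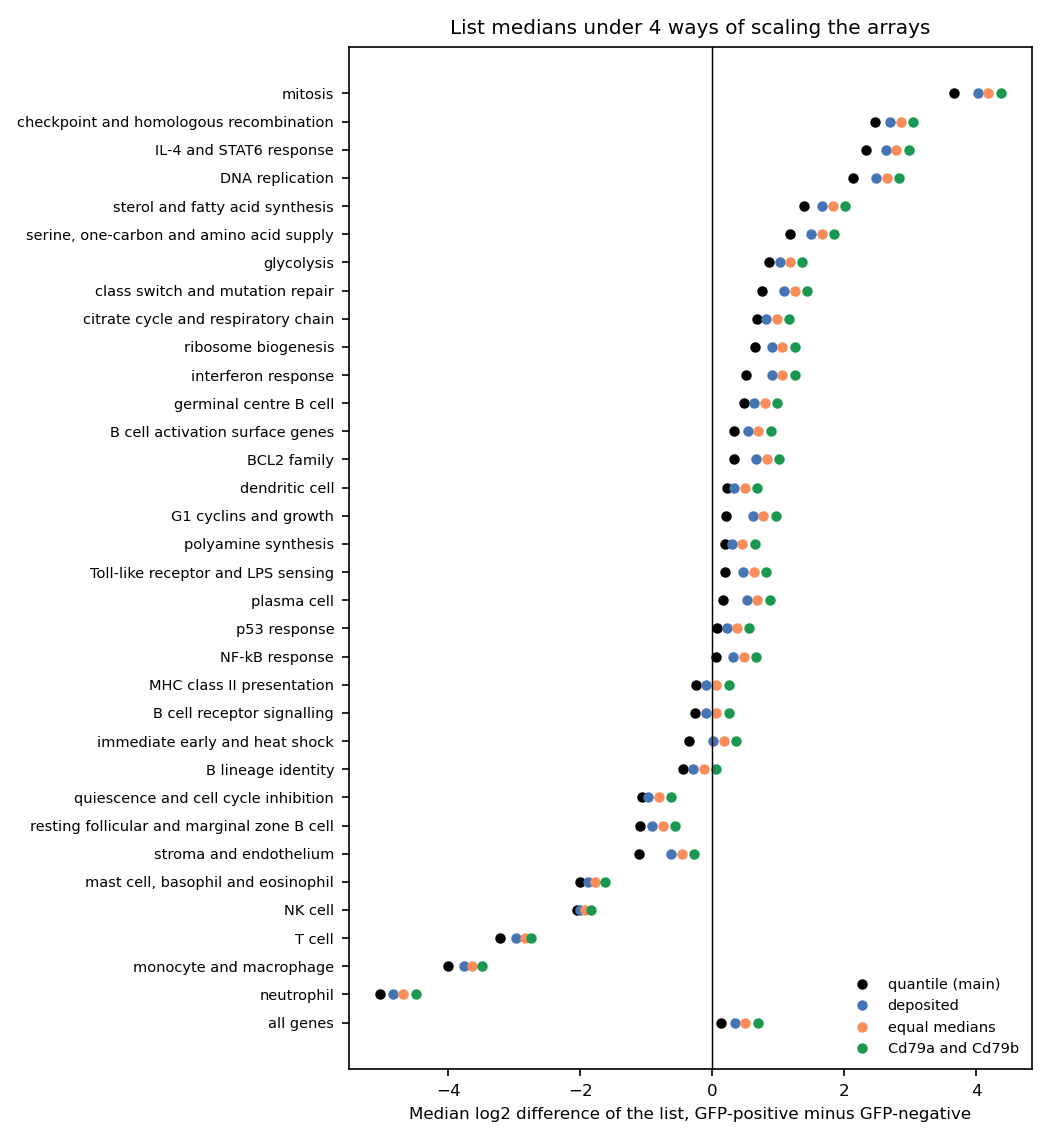
Median log2 difference (GFP-positive minus GFP-negative) of all genes and of each list with 5 or more tested genes on 4 scales of the arrays (black, quantile; blue, deposited; orange, equal medians; green, scaled to Cd79a and Cd79b). All points move to the right from quantile to the Cd79a and Cd79b scale, with all genes going from 0.13 to 0.69, and the lists of B lineage identity, B cell receptor signalling, MHC class II and immediate early genes cross 0.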

How the data were processed

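Total RNA was hybridised to Affymetrix mouse arrays, per the labels' protocols, and processed with GCOS 1.3, per the submitters' processing notes. The deposited values are linear signal intensities, 1 per probe set and array, and how the authors summarised and scaled them is not given in the sources used here.

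The 4 spleen arrays were quantile normalized together, values under 32 were set to 32, and log2 was taken. Genes with a mean log2 under the 40th percentile (5.72) were left out, and the brightest probe set with 1 symbol stood for each gene. Differences were tested with limma 3.58.1 in R 4.3.3 (lmFit, eBayes with trend, Benjamini-Hochberg). The script was tested on simulated data. Of 45037 probe sets, 34945 had 1 symbol in the platform annotation, 932 several and 9160 none. Promoters are RefSeq sequences of GRCm38.p6, and 9947 of 12319 genes matched an entry.

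The gene lists, the tests and the naming rule (any list member, and the 15 largest rises and falls outside the lists in each class) were chosen with earlier results of these data known, and the genes printed were picked from these after their values were seen. Alternatives were other scales, floors, filters, fits and probe set rules, a replicate block and leaving out each array. Values for the reporter's driver gene are not reported here.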

Additional observations from a re-analysis of the deposited data

How the results depend on the processing

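Of 3429 log2 values of 202 named genes under the alternatives, 3314 stayed on their side of the threshold and, where called, kept their direction, and 169 genes did so in every alternative run for them. The 202 include the gene with symbol a (0.99), which is not described above. On the Cd79a and Cd79b scale 7714 genes were called higher and 2163 lower, with equal medians 6884 and 2637, and on the deposited scale 6176 and 3131. Leaving out 1 array gave 3108 to 4850 higher and 2871 to 3785 lower, where the lone array of a fraction is assumed to vary like the pair of the other. Among values called in the reported fit or in the alternative, the log2 differences that turned sign on the Cd79a and Cd79b scale were Ccl5 (0.50), Cd37 (0.40), Cd69 (0.32), Cd74 (0.25), Cd79b (0.083), Cdt1 (0.39), Cxcr5 (0.49), Eif2s3y (0.38), Ighm (0.12), Insig1 (0.44), Kif11 (0.85), Ms4a1 (0.31), Nfkb2 (0.60), Prf1 (0.79), Pttg1 (0.27), Stat6 (0.059) and Trp53bp1 (0.073). With equal medians those that turned were Ccl5 (0.31), Cd37 (0.21), Cxcr5 (0.30), Eif2s3y (0.19), Insig1 (0.25), Kif11 (0.66), Ms4a1 (0.12), Nfkb2 (0.41), Prf1 (0.60) and Pttg1 (0.080). On the deposited scale those that turned were Eif2s3y (0.031), Kif11 (0.50) and Prf1 (0.44). With the mean of probe sets those that turned were Ighg3 (0.30), Kif11 (3.40), Orc1 (2.08), Rad54l (2.25) and Trp53bp1 (0.012). The cause was not tested. With the replicate number as a block, limma called 5361 higher and 4237 lower. The labels do not tie the numbers, and with 2 pairs the deviations of same-numbered arrays correlated at r = 0.28 across genes, which are not independent replicates. The number of arrays limits the precision, and low signals end at the floor.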

Other observations

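Genes of the sex chromosomes were measured in both fractions. Eif2s3y, on the Y chromosome, had signals of 2294 and 2208 in the GFP-negative arrays and 1930 and 1762 in the GFP-positive arrays, while Xist, which is made from the inactive X, had 107 and 82.1 against 41.4 and the floor of 32. Uty, also on the Y, was at the floor in both GFP-negative arrays and had 213 and 176 in the GFP-positive arrays.

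Probe sets of a gene did not always move together. Of 4254 called genes with more than 1 tested probe set, 1058 (24.9%) had another probe set called in the opposite direction.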
